A study of Mus musculus with 12 samples.

Results

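Chemokine ligands and their receptors were read in kidney RNA and in a universal mouse reference RNA. The genes were taken by symbol, as those whose probe sets name 1 gene called Ccl, Cxcl, Cx3cl, Xcl, Ccr, Cxcr or Cx3cr with a number. The rule found 47 of the 18193 genes that have such a probe set, namely 32 ligands (17 Ccl and 13 Cxcl genes, Cx3cl1 and Xcl1) and 15 receptors (9 Ccr and 5 Cxcr genes and Cx3cr1). They lie on 75 probe sets, and 18 of the 47 genes have more than 1.

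The series compares ways of amplifying small amounts of total RNA for arrays, and 12 arrays of mouse RNA were used, in 4 groups of 3. The groups are kidney RNA bought from Ambion at 10 ng, and Universal Mouse Reference RNA (its source is spelt Strategene) at 0.3, 3 and 10 ng. The reference is a commercial pool of RNA, a type of product made from cultured cell lines. All titles carry the code pRS, which they do not explain. The labels state no strain, sex, age or number of animals behind the kidney RNA and no list of the cells behind the reference. Nothing says that the 3 arrays of a group come from separate RNA, so the p-values measure the spread between these arrays, which may be technical.

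Chemokines are small secreted proteins that direct the movement of leukocytes through receptors coupled to G proteins. CC and CXC ligands differ in the spacing of their first cysteines, and many ligands share a receptor. One set is switched on during inflammation, often through NF-kB or interferon, and recruits monocytes, neutrophils or activated T lymphocytes. Another set is made at a steady level and positions lymphocytes and precursor cells, as Cxcl12 does through Cxcr4. In the kidney, epithelial cells, vessels and resident phagocytes can all make chemokines, while the receptors are mostly carried by leukocytes.

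Each value is a probe set's signal on the deposited linear scale, on which the trimmed mean of every array is 500. A signal under 33.7, the 95th percentile of the Bacillus control probe sets, was taken as not above background, and 33.2% to 42.4% of an array's probe sets lay under it. A gene is given by its probe set of highest mean log2 signal. Probe sets differ in brightness for the same amount of RNA. Differences in RNA are thus read between arrays, and a brighter gene is not taken to have more RNA. Fold changes are differences of log2(signal + 3.9), and a gene was called at an adjusted p under 0.05 in limma, with Benjamini-Hochberg adjustment over all 27022 tested probe sets. A probe set was tested where the log2 mean of at least 1 group passed a level of 65.4. Median signals were 56.6 to 59.6 on kidney arrays, and in the reference 47.5 to 53.2 at 0.3 ng, 70.1 to 78.3 at 3 ng and 67.9 to 71.2 at 10 ng.

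Of the 32 ligand genes, 10 were called higher in kidney than in the reference at 10 ng and 12 lower. A further 3 were tested and not called, and 7 were not tested because no group reached the level for testing. Of the 15 receptor genes, 3 were called higher and 3 lower, and 9 were not tested. Calls were common in this comparison: 62.7% of the 12820 genes tested were called, 27.1% higher and 35.6% lower. This split moved with the scaling: 3475 genes were higher and 4568 lower on the deposited scale, and 4223 and 3498 with arrays centred on their medians. As a share of all members, 68.8% of ligands and 40% of receptors were called, beside 44.2% of all 18193 genes. Every kidney array lay above every reference array for 12 ligands, 5 receptors and 4518 of all genes, and below for 12, 6 and 5809. Groups that do not overlap were thus common in this comparison. The median log2 fold change was 0.55 over the 32 ligands, 0.10 over the 15 receptors and −0.13 over all genes, and it was 0.17, 0 and 0 after raising signals under background to the background level. The ligands thus did not shift one way: some differed by over 4 on the log2 scale upward and others by as much downward, as the plot of ligand signals shows. In a bulk sample, fewer cells of a type and less RNA per cell cannot be told apart.

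**Figure D1:**
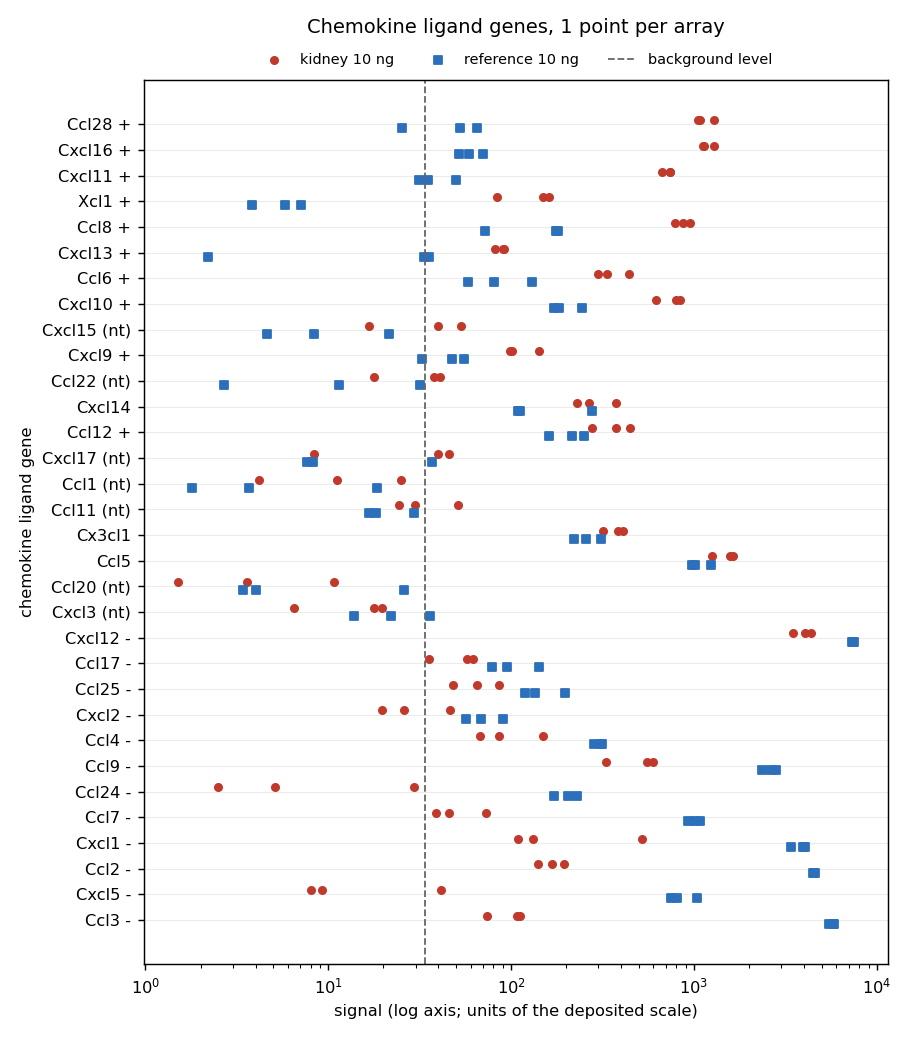
Signal of each of the 32 chemokine ligand genes (log axis, deposited linear scale), 1 point per array, with kidney at 10 ng as circles and the reference at 10 ng as squares. The dashed line is the background level of 33.7; + and - mark genes called higher and lower in kidney and (nt) genes not tested. Genes run by fold change, Ccl28 at the top with kidney arrays of 1054 to 1283 and Ccl3 at the bottom with reference arrays of 5471 to 5802.

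The monocyte-attracting ligands Ccl2 and Ccl7, which act through Ccr2, were far lower in kidney. Ccl2 had 194, 139 and 168 in kidney, against 4479, 4602 and 4531 in the reference at 10 ng, a log2 fold change of −4.74 (SE 0.16, adjusted p = 1.57e-05, limma). Ccl7 had 73.0, 45.9 and 39.0 in kidney and 1011, 1080.5 and 926 in the reference, a log2 fold change of −4.20 (SE 0.24, adjusted p = 7.8e-05, limma). Both sets of arrays were well apart, and the kidney arrays of Ccl7 lay only a little over background.

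The inflammatory CC ligands Ccl3, Ccl4 and Ccl9 were lower in kidney too. Ccl3, which draws macrophages and T lymphocytes, had 107, 112 and 73.5 in kidney and 5471, 5802 and 5746 in the reference at 10 ng, the greatest fitted change among the probe sets that stand for the 31 tested members at −5.83 (SE 0.19, adjusted p = 1.51e-05, limma). Its close relative Ccl4, which also draws macrophages and T lymphocytes, averaged 101 ± 42.7 in kidney and 302 ± 17.1 in the reference (SD, n = 3 each), a log2 fold change of −1.62 (adjusted p = 0.00495, limma). Ccl9, a mouse ligand of Ccr1, had 596, 332 and 551 in kidney and 2635, 2806 and 2359.9 in the reference, with a log2 fold change of −2.43 (SE 0.25, adjusted p = 0.00059, limma); its second tested probe set gave −1.43. No kidney array reached any reference array for these 3 genes. Ccl5, an attractant of T lymphocytes and monocytes, was not called: it had 1581, 1642 and 1261 in kidney and 1239, 1011 and 969 in the reference. Its arrays did not overlap, and the 95% confidence interval of its log2 fold change was 0.05 to 0.90 (adjusted p = 0.056, limma).

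Among the members, the neutrophil-attracting ligands of Cxcr2 were also lower in kidney where they were tested. Ppbp, a further such ligand outside the symbol rule, was tested and not called (log2 fold change 0.54, adjusted p = 0.231, limma). Cxcl1 had 109, 517 and 132 in kidney and 3951, 3387 and 4038 in the reference at 10 ng, with a log2 fold change of −4.24 (SE 0.59, adjusted p = 0.00182, limma). The second kidney array stood over 3 times higher than the other kidney arrays on this probe set, and the other 2 probe sets of Cxcl1 gave −6.13 and −6.39. Cxcl5 had 41.3, 9.2 and 8.0 in kidney, with 2 of 3 arrays under background, and 809.8, 747 and 1032 in the reference. Its log2 fold change was −5.48 as fitted and −4.57 at the background bound, with lower signals set to the background level (adjusted p = 0.000486, limma). Cxcl2 averaged 30.5 ± 13.8 in kidney and 71.6 ± 16.9 in the reference (SD, n = 3 each), with 2 of 3 kidney arrays under background. Its log2 fold change was −1.18 as fitted and −0.91 at the background bound (adjusted p = 0.0228, limma). Cxcl3, of the same subgroup, was not tested and lay between 6.5 and 19.7 in kidney and between 13.8 and 36.2 in the reference.

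Among the remaining ligands called lower, Ccl24, an eosinophil attractant acting through Ccr3, had 5.1, 29.3 and 2.5 in kidney, all under background, and 205, 171 and 230.3 in the reference at 10 ng. It was at least 5.96-fold lower in kidney (adjusted p = 0.00263, limma). Ccl17, a ligand of Ccr4, averaged 51.5 ± 13.9 in kidney and 105 ± 32.5 in the reference (SD, n = 3 each; log2 fold change −0.97, adjusted p = 0.0329, limma). Ccl25, a thymus and gut ligand of Ccr9, averaged 66.1 ± 18.8 in kidney and 150.0 ± 41.0 in the reference (SD, n = 3 each; log2 fold change −1.14, adjusted p = 0.0154, limma). Neither pair of groups overlapped, but the arrays of these genes lay closer together than those of Ccl24. The homeostatic ligand Cxcl12 had 3473, 4341 and 4038 in kidney and 7352, 7432 and 7541 in the reference, a log2 fold change of −0.92 (SE 0.14, adjusted p = 0.00224, limma). A second probe set of Cxcl12 did not show this difference: it averaged 1131 ± 84.9 in kidney and 1099 ± 44.5 in the reference (SD, n = 3 each), with a 95% interval of −0.27 to 0.34.

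On the other side, Ccl28 and Cxcl16, both made by epithelial cells, had the greatest fitted rises in kidney among the probe sets that stand for the members. Ccl28, a mucosal ligand of Ccr10 and Ccr3, had 1054, 1283 and 1078 in kidney and 52.2, 25.2 and 64.7 in the reference at 10 ng, a log2 fold change of 4.56 (SE 0.34, adjusted p = 0.000177, limma). Cxcl16, a membrane-bound ligand of Cxcr6, had 1133, 1122 and 1289.6 in kidney and 69.8, 58.6 and 51.8 in the reference, with a log2 fold change of 4.22 (SE 0.16, adjusted p = 2.2e-05, limma). The second probe set of Cxcl16 gave 4.29, and the second tested one of Ccl28 was at least 2.73-fold higher in kidney.

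The ligands of Cxcr3, Cxcl9, Cxcl10 and Cxcl11, which are induced by interferon and attract activated T lymphocytes and NK cells, were all called higher in kidney. Cxcl11 had 742, 668 and 735 in kidney and 35.1, 49.8 and 31.3 in the reference at 10 ng, a log2 fold change of 4.10 (SE 0.19, adjusted p = 3.99e-05, limma), while a dimmer second probe set was not called (1.20, adjusted p = 0.0802). Cxcl10 had 834, 618 and 793 in kidney and 184, 244 and 172 in the reference, a log2 fold change of 1.89 (SE 0.20, adjusted p = 0.000653, limma). The groups were apart for both genes, and Cxcl10 lay over background on every reference array. Cxcl9 averaged 113 ± 24.2 in kidney and 45.1 ± 11.4 in the reference (SD, n = 3 each), a log2 fold change of 1.27 (adjusted p = 0.00631, limma). Its other probe set, picked out after its values were seen, had 493, 442 and 552 in kidney and 1.5, 0.8 and 1.0 in the reference, at least 14.7-fold higher in kidney (adjusted p = 4.96e-06, limma).

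To set the neighbours Cxcl9 and Cxcl10 beside Cxcl1 and Cxcl2, whose signals lay the other way, the 250 bases before each start site are printed from RefSeq GRCm38.p6, 5′ to 3′ on the gene's strand. Capitals mark GGGA and TTCC with any 2 bases between them, a kappaB motif bound by NF-kB, and GAAA and GAAA with any 2 bases between them, the core of the interferon-stimulated response element.
Cxcl9, chr5:92328080-92328329, minus strand: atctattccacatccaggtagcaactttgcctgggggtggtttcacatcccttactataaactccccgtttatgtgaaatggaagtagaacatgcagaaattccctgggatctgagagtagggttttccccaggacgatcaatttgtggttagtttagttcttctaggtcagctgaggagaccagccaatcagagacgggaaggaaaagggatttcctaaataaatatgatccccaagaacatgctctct
Cxcl10, chr5:92348890-92349139, minus strand: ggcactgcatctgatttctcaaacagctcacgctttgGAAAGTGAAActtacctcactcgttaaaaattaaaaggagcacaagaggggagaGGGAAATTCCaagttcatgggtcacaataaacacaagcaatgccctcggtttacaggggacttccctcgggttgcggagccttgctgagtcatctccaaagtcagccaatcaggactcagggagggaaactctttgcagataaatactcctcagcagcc
Cxcl1, chr5:90890995-90891244, plus strand: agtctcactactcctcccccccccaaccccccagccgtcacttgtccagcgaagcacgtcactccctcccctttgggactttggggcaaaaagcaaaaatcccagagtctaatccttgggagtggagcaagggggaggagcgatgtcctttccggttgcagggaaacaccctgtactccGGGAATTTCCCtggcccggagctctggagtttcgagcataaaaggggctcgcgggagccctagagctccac
Cxcl2, chr5:90903649-90903898, plus strand: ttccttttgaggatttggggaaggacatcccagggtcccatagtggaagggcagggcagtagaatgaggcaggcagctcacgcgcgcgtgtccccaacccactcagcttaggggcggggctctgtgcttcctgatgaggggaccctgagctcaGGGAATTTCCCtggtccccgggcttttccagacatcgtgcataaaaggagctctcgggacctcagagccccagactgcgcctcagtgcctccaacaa

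Both motifs were searched on both strands in windows that ran from 250 bases before to 50 bases after each start. Windows were found for 34 of the 47 members, 22 ligands and 12 receptors. The kappaB letters were present for 5 of the 22 ligands (Ccl1, Cxcl1, Cxcl2, Cxcl3 and Cxcl10) and for 1 receptor, Ccr3, and in 1.47% of all 32851 windows. In Cxcl1 and Cxcl2 the match began 71 and 97 bases before the start, and the reverse strand matched 1 base further on, overlapping it. Cxcl10 held the kappaB letters 159 and the interferon letters 213 bases before its start. The interferon letters were present for 2 of the 22 ligands (Cxcl10 and Cxcl14), for 0 of the 12 receptors and in 3.44% of all windows. Cxcl9 had neither set of letters in its window, and looser forms of the motifs were not searched. A match is a string of letters and was not tested as a binding site.

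Further ligands called higher in kidney act on dendritic cells, lymphocytes or monocytes. Xcl1, made by NK cells and T lymphocytes for cross-presenting dendritic cells, had 149.8, 160.4 and 84.1 in kidney and 5.8, 3.8 and 7.1 in the reference at 10 ng. All its reference arrays were under background, and it was at least 3.76-fold higher in kidney (adjusted p = 0.000196, limma). Cxcl13, which guides B lymphocytes into follicles through Cxcr5, had 90.0, 81.6 and 91.8 in kidney and 33.4, 2.2 and 35.7 in the reference. Its log2 fold change was 2.14 as fitted and 1.35 at the background bound (adjusted p = 0.0493, limma). The groups did not overlap, but this call stood at the threshold. A second probe set of Cxcl13 had 245, 355 and 269.8 in kidney and 39.1, 12.2 and 24.0 in the reference, with a log2 fold change of 3.44 (adjusted p = 0.000762, limma).

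Ccl8 and Ccl12, relatives of Ccl2 that attract monocytes, and Ccl6, a mouse ligand of Ccr1, were also called higher in kidney. Ccl8 had 956, 868 and 788 in kidney and 71.5, 175 and 180.2 in the reference at 10 ng, a log2 fold change of 2.69 (SE 0.37, adjusted p = 0.00181, limma). Ccl6 had 335, 297 and 439 in kidney and 131, 58.3 and 80.6 in the reference, a log2 fold change of 1.998 (SE 0.32, adjusted p = 0.00314, limma). Ccl12 averaged 367 ± 85.2 in kidney and 209.6 ± 44.8 in the reference (SD, n = 3 each), the smallest called rise among the ligands at 0.79 (adjusted p = 0.0356, limma). The calls of Ccl12, Cxcl13, Ccl17 and Cxcl2 were each lost when certain single arrays were left out, with adjusted p from 0.0512 to 0.106.

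Besides Ccl5, 2 tested ligands were not called. Cx3cl1, the membrane-bound ligand of Cx3cr1 found on endothelium and epithelium, had 383, 318 and 407 in kidney and 258, 311 and 220.4 in the reference at 10 ng, with a 95% interval of the log2 fold change of 0.04 to 0.94 (adjusted p = 0.0603, limma). Its arrays did not overlap, and the gene crossed the threshold when arrays were scaled to a common median (0.74, adjusted p = 0.0238). Cxcl14, found in epithelia, had 376, 229 and 268 in kidney and 108, 112 and 276 in the reference, and here 1 reference array lay among the kidney arrays (interval −0.11 to 1.93, adjusted p = 0.104, limma). Without reference array 3 it passed the threshold (1.34, adjusted p = 0.0118). On a second probe set of Cxcl14 all reference arrays were under background and kidney was at least 4.84-fold higher (adjusted p = 0.000621, limma). The 7 ligands not tested were Ccl1, Ccl11, Ccl20, Ccl22, Cxcl3, Cxcl15 and Cxcl17, and none had an array over 53.2 in kidney or over 37.0 in the reference at 10 ng. Signals so near background cannot show a difference between the RNAs.

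**Figure D2:**
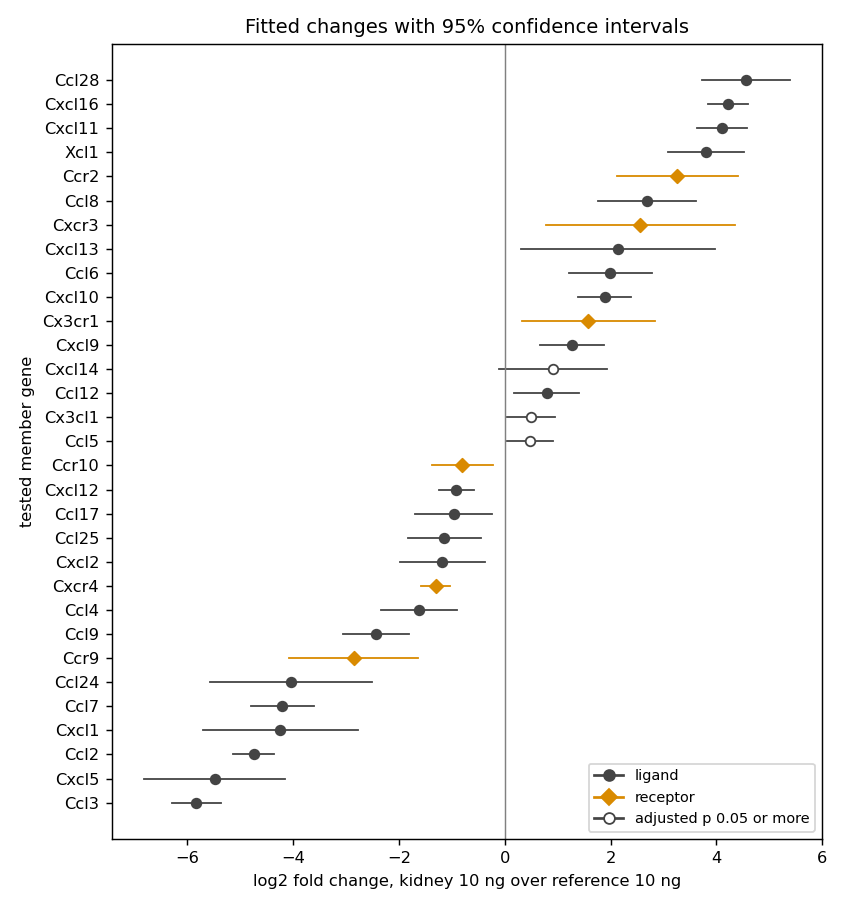
Fitted log2 fold change, kidney at 10 ng over the reference at 10 ng, for the 31 tested members, with 95% confidence intervals. Circles are ligands, diamonds receptors and open symbols genes not called; Ccl28 stands at the top with 4.56 and Ccl3 at the bottom with −5.83.

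Chemokine genes that lie close together in the genome, in places with other genes between them, shared a direction in some runs and not in others. In the order of RefSeq GRCm38.p6, Ccl2 and Ccl7 are followed by Ccl11, Ccl12, Ccl8 and Ccl1, and of these 6 genes the first pair was called lower, Ccl12 and Ccl8 higher, and the other 2 were not tested. In the run Ccl5, Ccl9, Ccl6, Ccl3 and Ccl4, 3 genes were called lower, Ccl6 higher, and Ccl5 was not called. Among CXC genes, Cxcl5, Cxcl1 and Cxcl2 were called lower beside the untested Cxcl3 and Cxcl15. Cxcl9, Cxcl10 and Cxcl11, a separate run on the same chromosome, were called higher; RefSeq lists Cxcl11 of this assembly as a transcribed pseudogene. The receptor run of Ccr9, Cxcr6, Ccr1, Ccr3 and Ccr2 held 1 gene called lower, Ccr9, and 1 called higher, Ccr2. In the run Ccl22, Cx3cl1 and Ccl17, Ccl17 was called lower, and of Cx3cr1 and Ccr8 the first was called higher.

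Among the receptors, Cxcr4 was measured far above background on every array, and most of the others lay near it. Cxcr4, the receptor of Cxcl12 on leukocytes and many progenitor cells, had 3614, 3665 and 3643 in kidney and 8899, 9076 and 9005 in the reference at 10 ng. Its log2 fold change was −1.30 (SE 0.11, adjusted p = 0.000275, limma), and the highest array was 1.01 times the lowest in kidney and 1.02 times in the reference. Cxcr4 and the brighter probe set of its ligand Cxcl12 were thus both lower in kidney.

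**Figure D3:**
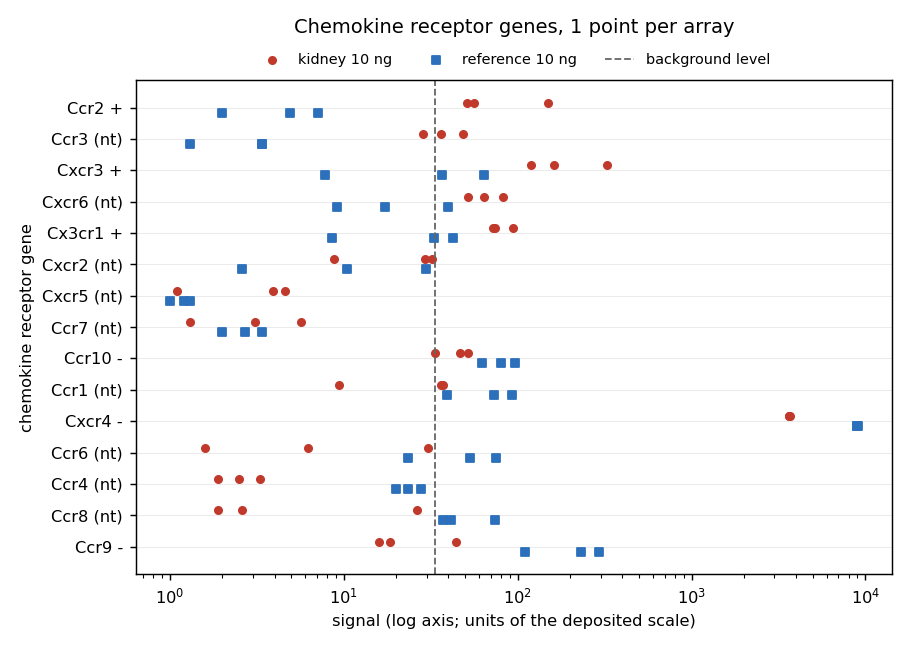
Signal of each of the 15 chemokine receptor genes (log axis, deposited linear scale), 1 point per array, with kidney at 10 ng as circles and the reference at 10 ng as squares. The dashed line is the background level of 33.7; + and - mark genes called higher and lower in kidney and (nt) genes not tested. Cxcr4 arrays lie at 3614 to 3665 in kidney and 8899 to 9076 in the reference, and no array of another receptor passes 327.

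Ccr2, the monocyte receptor of Ccl2, had 56.2, 50.9 and 149 in kidney and 7.1, 2.0 and 4.9 in the reference at 10 ng, where all arrays were under background. It was at least 2.23-fold higher in kidney (adjusted p = 0.00194, limma), and a second probe set at least 5.34-fold (adjusted p = 0.00246, limma). Of its ligands, Ccl2 and Ccl7 were called lower in kidney and Ccl12 higher. Cxcr3, carried by activated T lymphocytes and NK cells, had 161, 327 and 119 in kidney and 64.0, 36.8 and 7.8 in the reference, a log2 fold change of 2.56 (SE 0.73, adjusted p = 0.0252, limma), or 2.10 at the background bound. Cx3cr1, found on monocytes and kidney phagocytes, had 72.0, 93.6 and 73.6 in kidney and 42.7, 33.2 and 8.6 in the reference, a log2 fold change of 1.58 as fitted and 1.12 at the background bound (adjusted p = 0.0384, limma). Their arrays did not overlap between groups, but both calls were lost without kidney array 1 or 2 or reference array 2, with adjusted p from 0.0546 to 0.0986, and that of Cx3cr1 also without kidney array 3 (0.0777).

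Ccr9 and Ccr10 were called lower in kidney. Ccr9, the thymus and gut receptor of Ccl25, had 15.9, 18.4 and 44.1 in kidney and 232, 109.8 and 294 in the reference at 10 ng, a log2 fold change of −2.85 (SE 0.49, adjusted p = 0.00414, limma), or −2.41 at the background bound. Its 2 other tested probe sets were not called (adjusted p = 0.199 and 0.405). Ccr10, the receptor of Ccl27 and Ccl28, had 33.3, 46.4 and 51.9 in kidney and 96.4, 79.9 and 62.3 in the reference, a log2 fold change of −0.80 (SE 0.23, adjusted p = 0.0268, limma). Ccr10 was thus lower in kidney and its ligand Ccl28 higher. The call of Ccr10 was lost without kidney array 1 or 2 or reference array 1 or 2 (adjusted p from 0.0539 to 0.0782).

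The 9 receptors not tested were Ccr1, Ccr3, Ccr4, Ccr6, Ccr7, Ccr8, Cxcr2, Cxcr5 and Cxcr6. Cxcr6, the receptor of Cxcl16 on T lymphocytes and NK cells, had 63.9, 51.9 and 82.8 in kidney and 17.3, 9.1 and 39.7 in the reference at 10 ng, over background on every kidney array and on 1 of 3 reference arrays. Ccr3 had 28.6, 48.6 and 36.2 in kidney and 1.3, 3.4 and 3.4 in the reference, so that 2 kidney arrays and 0 reference arrays were over background. Ccr8, found on some T lymphocytes, had 1.9, 26.3 and 2.6 in kidney and 37.2, 41.5 and 74.3 in the reference. Signals of these untested receptors lay near background, and no difference between the RNAs is read from them. Ccr4, Ccr7, Cxcr2 and Cxcr5 were under background on all 6 of these arrays. Taking all members, 22 of 32 ligands were over background on every kidney array, against 20 on every reference array at 10 ng, and 5 of 15 receptors were in each of the groups. Cxcr4 was among the 5 in both; the others were Ccr2, Cx3cr1, Cxcr3 and Cxcr6 in kidney, and Ccr1, Ccr8, Ccr9 and Ccr10 in the reference. For Ccr1 the probe sets were opposed: its other one, also not tested, had 60.1, 85.4 and 16 in kidney and 2.3, 3.1 and 3.2 in the reference at 10 ng, the last all under background.

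Other genes of the chemokine system were looked at through 4 lists, beside 27.1% higher and 35.6% lower among all genes tested. Of 9 further ligands and receptors measured, 3 were called higher in kidney, 1 lower and 2 not called, with a median log2 fold change of 0.72 beside −0.13 over all genes. Ackr3, a scavenging receptor of Cxcl12, averaged 8577 ± 141 in kidney and 4360.5 ± 196 in the reference at 10 ng (SD, n = 3 each; log2 fold change 0.98), and Ackr4, a scavenger of Ccl19, Ccl21 and Ccl25, also rose (0.74), as did Ccl27a (1.50). The platelet ligand Pf4 averaged 508 ± 54.0 in kidney and 4919 ± 89.7 in the reference, the only one called lower (−3.27). Ackr1 (−0.05), Ackr2 (−0.90) and Xcr1 (1.48) were not tested. Of 29 genes that carry the signal of the receptors, 2 were called higher, 14 lower and 13 not called, with a median of −0.92. The inhibitory G protein subunit Gnai1 averaged 3871 ± 155 in kidney and 93.2 ± 14.8 in the reference (log2 fold change 5.33), and the kinase Ptk2b rose by 1.33. The leukocyte signalling genes Rac2 (−2.16), Pik3r5 (−2.07, or −1.75 at the background bound) and Vav1 (−2.07) were among those called lower.

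Of 16 genes that cut chemokines or hold them on the cell surface, 2 were called higher in kidney, 6 lower and 7 not called, with a median log2 fold change of −0.42. Dpp4, a protease that trims the ends of chemokines such as Cxcl12 and Cxcl10, averaged 7938 ± 239 in kidney and 2555 ± 199 in the reference at 10 ng (log2 fold change 1.64), and the heparan sulfate enzyme Hs6st1 rose by 1.35. The matrix proteases Mmp2 (−2.88) and Mmp9 (−2.83) and the proteoglycan Sdc1 (−1.78) were lower. Of 17 cytokines, receptors and factors of the NF-kB and interferon routes, 3 were called higher, 6 lower and 6 not called, with a median of −0.42. In each of these lists 15 genes were tested, and of all genes tested 27.1% were called higher and 35.6% lower. Irf8 (2.25), Il1b (1.63) and Ikbkg (0.57) rose, and Nfkb2 (−2.13), Il1r1 (−2.05) and Nfkbiz (−1.69) fell most.

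Markers of cell types differed between the RNAs in the same comparison, where 27.1% of all genes tested were called higher and 35.6% lower. All 8 kidney tubule markers were called higher in kidney, with summed signals of 50365 to 51844 per kidney array and 129.9 to 176.9 per reference array at 10 ng, and 6 of the 8 were under background on every such reference array. All 6 endothelial markers were called higher (sums of 5364 to 6217 in kidney and 130.2 to 290.9 in the reference). For macrophages, the source of many CC ligands, 5 of 9 measured markers were called higher and 2 lower, with sums of 13303 to 15632 in kidney and 4907 to 5081 in the reference. The complement genes C1qa, C1qb and C1qc were among those called higher and Cd68 among those called lower. Of 4 NK cell markers 2 were called higher, with sums of 1416 to 1558 in kidney and 191.2 to 244.4 in the reference, where 2 of the 4 were under background on all arrays.

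Of 6 general leukocyte markers, 1 was called higher in kidney and 5 lower, with sums of 13906 to 14797 in kidney and 24970.4 to 27740.2 in the reference. T lymphocyte markers divided, 3 of 7 higher and 3 lower (7137 to 7600 in kidney and 11535 to 12312 in the reference). Most of these sums came from Cd3e, which averaged 6078 in kidney and 10326.5 in the reference. The median log2 fold change of the list lay the other way, at 1.01. Of 4 B lymphocyte markers 3 were called lower (178.4 to 186 in kidney and 1548 to 1851 in the reference), and 2 of the 4 were under background on all kidney arrays. Of 6 fibroblast markers 5 were called lower (6856 to 7150.4 in kidney and 31929 to 36645 in the reference). Neutrophil markers were higher for 2 of 5 (6105 to 6453 in kidney and 1328 to 1620.0 in the reference), with 2 of the 5 under background on all kidney arrays and 4 of the 5 on all reference arrays. Dendritic cell markers were higher for 1 of 5 (2150.4 to 2609 in kidney and 886 to 1475 in the reference), a sum made almost wholly by Zbtb46, and mast cell markers for 1 of 4 (138.5 to 165.2 in kidney and 33 to 56 in the reference). Each sum leans on the brightest probe sets of its list. The part of these differences in the chemokine results was not tested.

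The same kidney arrays were set against the smaller amounts of the reference, so the comparisons share them. Kidney stayed at 10 ng, so tissue and input change together here and their parts cannot be told apart. Over the reference at 3 ng, 10 ligands were called higher in kidney and 9 lower, and 3 receptors each way, where 57.8% of genes tested were called, 26.4% higher and 31.4% lower. Over the reference at 0.3 ng, 9 ligands were higher and 8 lower, 2 receptors higher and 1 lower, where 37.6% of genes tested were called, 20.9% higher and 16.7% lower. For kidney over the reference, the log2 fold change of Ccl3 was −6.05 at 0.3 ng, −5.76 at 3 ng and −5.83 at 10 ng. That of Ccl28 was 5.23, 4.04 and 4.56. Cxcr4 gave −1.73, −1.40 and −1.30, all called. By contrast Ccr9 gave −0.91, −2.36 and −2.85 and was not called over the reference at 0.3 ng (adjusted p = 0.479, limma). Ccl12 gave −0.02, 1.25 and 0.79 and was called only at 10 ng. Cxcl14 was called over the reference at 0.3 ng (3.39, adjusted p = 0.00936, limma) and at 3 ng (1.47, adjusted p = 0.0275, limma). Its mean in the reference was itself lower at the smaller amounts, with 30.5 at 0.3 ng, 109 at 3 ng and 165 at 10 ng. The next comparisons set the amounts of the reference against each other.

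**Figure D4:**
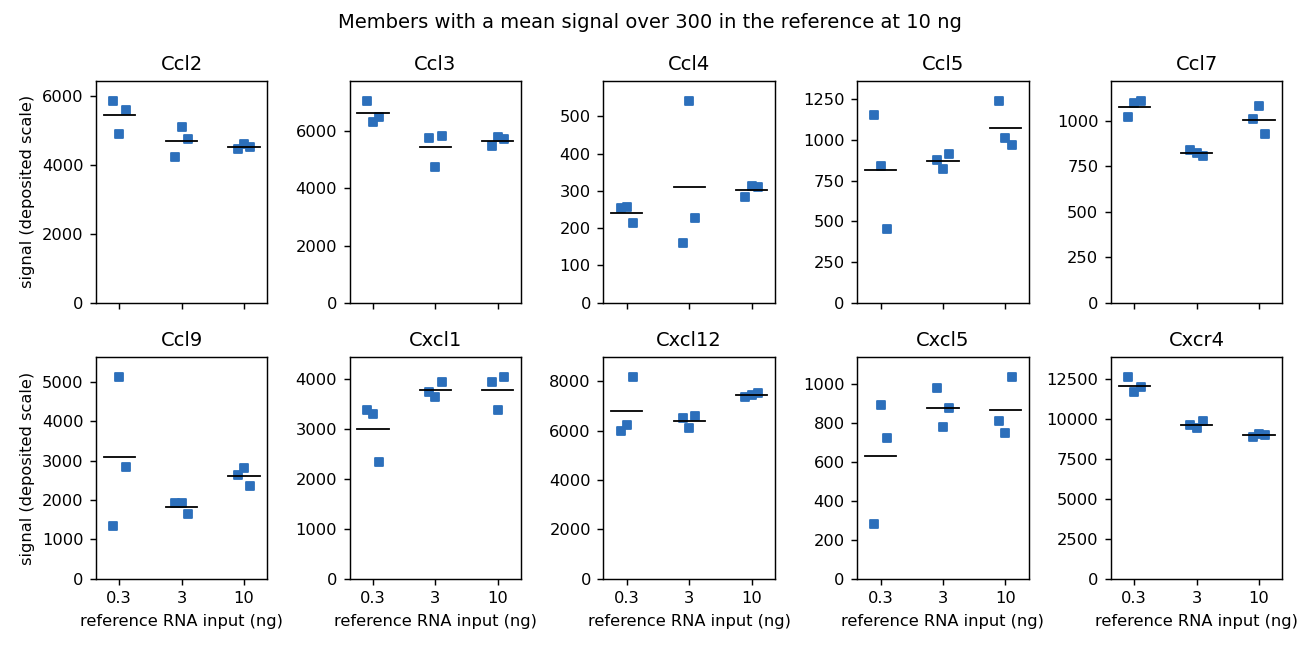
Signal (linear axis from 0, deposited scale) of the 10 members with a mean over 300 in the reference at 10 ng, at reference inputs of 0.3, 3 and 10 ng, with 1 point per array and a bar at the mean of 3 arrays. Cxcr4 arrays lie between 11674 and 12608 at 0.3 ng and between 8899 and 9076 at 10 ng, and Ccl9 spreads from 1345 to 5120 at 0.3 ng.

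Within the reference no member was called at the lower amounts. At 3 ng against 10 ng, 0 of 25 tested ligands and 0 of 6 tested receptors were called, where 0% of all genes tested were called in limma; 3 ligands and 1 receptor had an unadjusted p under 0.05. At 0.3 ng against 10 ng, 0 ligands and 0 receptors were called, where 0.554% of genes were called, 0.0078% higher and 0.546% lower; 4 ligands and 1 receptor had an unadjusted p under 0.05. Median log2 fold changes over all members were −0.11 for ligands and −0.05 for receptors at 3 ng, and −0.34 and 0.27 at 0.3 ng, beside −0.02 and −0.16 over all genes. An uncalled gene is not shown to be equal at these amounts, as the intervals below state.

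Cxcr4 and Cxcl12 were taken as examples for the bright signal of their probe sets. Cxcr4 had 12608, 11674 and 11986 at 0.3 ng, 9619.8, 9414 and 9881 at 3 ng and 8899, 9076 and 9005 at 10 ng. Its log2 fold change was 0.43 at 0.3 ng over 10 ng (95% interval −0.08 to 0.93, adjusted p = 0.395, limma) and 0.10 at 3 ng over 10 ng (−0.20 to 0.40). For this gene all arrays at 0.3 ng lay above all arrays at 10 ng, and the test did not pass. Arrays lay so for 1271 of all 18193 genes, and the other way for 2649. Cxcl12 had 5997, 6235 and 8164 at 0.3 ng, 6514, 6125 and 6578 at 3 ng and 7352, 7432 and 7541 at 10 ng. Its intervals were −0.72 to 0.43 at 0.3 ng over 10 ng and −0.52 to 0.09 at 3 ng over 10 ng.

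The spread between arrays was wider at 0.3 ng. The median SD of log2 signal over ligands was 0.64 at 0.3 ng, 0.55 at 3 ng and 0.32 at 10 ng, and over receptors 0.78, 0.29 and 0.50. Over all probe sets it was 0.76, 0.43 and 0.36, so the wider spread at 0.3 ng was not particular to the members. Over the 10 members with a mean over 300 in the reference at 10 ng, the highest array was a median of 1.28, 1.14 and 1.14 times the lowest at 0.3, 3 and 10 ng. It was over 2 times for 3 of them at 0.3 ng, for 1 at 3 ng and for 0 at 10 ng. Ccl9 had 1345, 5119.9 and 2842 at 0.3 ng, 1935, 1916 and 1658 at 3 ng and 2635, 2806 and 2359.9 at 10 ng. Ccl12, which lay under 300 at 10 ng, had 1284, 214 and 174 at 0.3 ng, so that 1 array alone was high, against 251, 162 and 216 at 10 ng (95% interval of the log2 fold change −1.13 to 2.75).

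Dim members were over background on some arrays of a group and under it on others. Of the 32 ligands, 16 were over background on all arrays at 0.3 ng, 18 at 3 ng and 20 at 10 ng, and of the 15 receptors 3, 3 and 5 were. Ccr7, the receptor that takes dendritic cells and T lymphocytes to lymph nodes, had 139.7, 11.6 and 57.2 at 0.3 ng and 2.0, 2.7 and 3.4 at 10 ng. Ccr1 had 344, 52.3 and 9.7 at 3 ng, high on a single array, and 93.1, 39.4 and 73.2 at 10 ng. Ccr7 was over background on 2 of 3 arrays at 0.3 ng and on 0 of 3 at 10 ng. Both genes were picked out after their values were seen, and neither was tested.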

How the data were processed

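The authors deposited 1 table of linear probe set intensities for 12 arrays. No source used here says how these signals were made; the 2% trimmed mean of every array is 500. Replicates are numbered as in the titles. Control probe sets (64 of 45101) were left out of tests. Genes were named from the platform annotation, where 34945 probe sets have 1 symbol, 932 several and 9160 none; all 47 members were found by gene ID in RefSeq GRCm38.p6, with 0 symbols changed.

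From the deposited intensities, log2(signal + 3.9) was fitted by lmFit and eBayes of limma 3.58.1 (R 4.3.3), each comparison on the 6 arrays of its pair of groups, without a replicate block. A probe set was tested where its highest group mean log2 signal passed the 40th percentile, and Benjamini-Hochberg adjustment ran over all 27022 of these. Same-numbered arrays did not deviate together (correlations of −0.06 to 0.02), so the numbers do not pair them. Precision is limited by the number of arrays. The fit was tested on simulated data.

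Members and gene lists were chosen with earlier results of these data known. All called members are named, with arrays given for up to 14 ligands and 10 receptors of greatest change; in the reference the 2 brightest are named, and up to 3 genes a direction from each list. Other pseudocounts, filters, scalings, fits and probe set choices, and leaving out each array, were tried.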

Additional observations from a re-analysis of the deposited data

How the results depend on the processing

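Of 2745 values of single members under the alternatives, 2590 kept their side of the threshold, 103 fell short of it and 51 newly passed it. Of the uncalled values, 61 changed sign, and 1 called value reversed: Cxcl12 in kidney over the reference at 3 ng was 0.28 with the mean of all its probe sets. Of the calls over the reference at 10 ng, 8 of 10 higher ligands, 8 of 12 lower ligands, 1 of 3 higher receptors (Ccr2) and 2 of 3 lower receptors (Ccr9 and Cxcr4) held under every alternative they entered. Ccl12, Cxcl13, Ccl17, Ccl25, Cxcl12, Cxcl2, Cx3cr1, Cxcr3 and Ccr10 did not. Some called members did not enter all 18 alternatives: Ccr2 and Cx3cr1 entered 16, and Ccr9, Xcl1, Cxcl13 and Cxcl2 entered 17. For these members, the alternatives they did not enter could not test the call.

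The count of receptors called higher over the reference at 10 ng, 3, was 1 when the filter used the mean over all 12 arrays and 1 with the mean of all probe sets. Ccr2 and Cx3cr1 did not enter these alternatives in any comparison, so they could not be called there. Over the reference at 3 ng it was 6 with no filter, 1 with the filter on the mean and 1 with the mean of probe sets. Over the reference at 0.3 ng, 2 became 1 with no filter, with the filter on the mean, with array weights and with the mean of probe sets; the lower receptors became 2 with all 12 arrays in 1 fit, and the lower ligands 5 with array weights. In the reference at 0.3 ng over 10 ng, 1 ligand, Cxcl14, was called lower with all 12 arrays in 1 fit. That fit called 5.81% of all tested probe sets, against 0.796% as reported. For kidney over 3 ng the share was 30.6% with no filter and 52.3% with the filter on the mean, against 56.7%. Over 0.3 ng it was 17.2%, 30.6%, 31.7% with array weights and 49.5% with all 12 arrays, against 34.8%. The cause of the other changes was not tested.

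Leaving out 1 array at a time gave 8 to 10 higher and 10 to 11 lower ligands over the reference at 10 ng, with 1 to 3 and 2 to 3 receptors. Over 3 ng it gave 9 to 12 and 9 to 11 ligands and 2 to 3 receptors each way, and over 0.3 ng 7 to 11 and 5 to 8 ligands and 1 to 3 receptors each way. Within the reference the member counts stayed at 0. The share of all tested probe sets called moved too. Over 10 ng it was 51.7% to 54.7%, against 60.1% with all arrays. Over 3 ng it was 48.2% to 50.5% against 56.7%, and over 0.3 ng 20.4% to 37.9% against 34.8%. Higher receptors over 10 ng fell to 1 without kidney array 1 or 2 or reference array 2. Single calls over the reference at 10 ng were lost for Cxcl13 without kidney array 1, 2 or 3 or reference array 1 (adjusted p 0.0512 to 0.106), for Ccl12 and Ccl17 without kidney array 1 or 3 or reference array 2 or 3 (0.0553 to 0.0947), and for Cxcl2 without kidney array 1 or 2 or reference array 1 or 3 (0.0564 to 0.0704). Ccl5 passed without kidney array 3 (0.0399) and Cx3cl1 without reference array 2 (0.0382).

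Replicate block: with the replicate number as a block, 9 ligands were higher and 10 lower over the reference at 10 ng, 11 and 9 over 3 ng, and 7 and 6 over 0.3 ng. Of all tested probe sets 54.2%, 50.1% and 24.6% were then called, against 60.1%, 56.7% and 34.8% without the block. Scaling mattered for all genes: the median log2 fold change of tested probe sets, kidney over reference at 10 ng, was −0.34 as deposited, −0.09 with arrays centred on their medians and −0.22 after quantile normalization, and the higher share of called probe sets was 38.2%, 49.1% and 43.6%. Ligand calls were then 12 higher and 10 lower with centring and 11 and 11 with quantiles, and Ccl17 and Ccr10 were lost under both. With the probe set of highest group mean, an alternative chosen after seeing the data, another probe set stood for Ccr2, Cxcl1, Cxcl13 and Cxcl9.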

Other observations

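Further chemokine probe sets name several genes at once and so stand for no single member. A probe set that lists the Ccl19 genes, ligands of Ccr7 that guide dendritic cells and T lymphocytes into lymphoid tissue, had 1867, 2040.1 and 1965 in kidney and 5.0, 1.7 and 2.5 in the reference at 10 ng, a log2 difference of at least 5.86 once signals under the background level were raised to it (adjusted p = 6.38e-06, limma). The probe set of the Ccl21 genes, the other ligands of Ccr7, had 229, 171 and 188 in kidney and 16.3, 9.1 and 5.1 in the reference at 10 ng, a log2 difference of at least 2.53 on the same reckoning (adjusted p = 0.000246, limma). On both, every kidney array lay over the background level and every reference array at 10 ng under it. For the Ccl27 genes, ligands of Ccr10, 2 shared probe sets had 224, 286 and 313 in kidney against 67.2, 94.9 and 59.0 in the reference at 10 ng, and 324, 348 and 496 in kidney against 69.0, 162 and 124 in the reference at 10 ng. Their log2 fold changes were 1.86 (adjusted p = 0.00113) and 1.74 (adjusted p = 0.00729), on limma's fit over all tested probe sets. These probe sets were looked at after the values of the single-gene members had been seen.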
